A study of Mus musculus with 6 samples.

Results

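Genes that make heme, the reductase that hands electrons to the heme enzymes of the cytochrome P450 family, and the erythroid genes of red cells were followed in the livers of alcohol-fed mice. The 9 genes are Alas1, Alad, Uros, Cpox and Fech of heme synthesis, Por (P450 reductase), and the erythroid Alas2, Hba-a1 and Hbb-b1. They were taken by name: every probe whose gene name in the scanner files equals one of the 9 was used, which gave 15 of the 41174 different probes on the array. Alas1, Fech and Hba-a1 have 2 probes each, Hbb-b1 has 4 and the other genes have 1. All 15 probes were well above background in both channels of all 6 arrays and none was saturated. Male 129/Sv mice, 6 to 8 weeks old at the start, received a liquid diet with 4% ethanol ad libitum or an isocaloric control diet with maltose dextran for 1, 2 or 4 months, after all of them had first been kept on the control liquid diet. Equal amounts of liver RNA of 6 mice were combined into 1 pool for each diet and month, and the alcohol and control pools of a month were hybridized together on 2 two-color arrays with the dyes exchanged. The 2 arrays of a month read the same RNA and count as 1 replicate, so that no measure of the spread between mice exists and p-values over the months measure only the spread between the 3 pairs of pools.

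Heme is built from glycine and succinyl-CoA in a pathway that begins and ends in mitochondria. Its first and rate-limiting step is done by 5-aminolevulinate synthase, encoded by Alas1 in all tissues and by Alas2 in erythroid cells. In liver much of the heme goes to P450 enzymes, and Alas1 is known to be induced by drugs that raise these enzymes and to be repressed by heme. In red cell precursors heme is joined to the alpha and beta globin chains, of which Hba-a1 and Hbb-b1 are adult genes. Globin mRNA in an adult liver comes mainly from red cells in its vessels, so that the globin probes serve here as a blood readout. In pooled tissue, fewer cells of a type and less RNA per cell cannot be told apart, and it was not given in the sources used here whether the livers were flushed of blood.

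Between 73.3% and 90.3% of the spots of an array were well above background. A ratio is given below as log2 alcohol over control, where 1 stands for 2-fold, first for the array that had alcohol in Cy5 and then for its dye-swapped partner. Across 27900 bright probes the 2 arrays of a month correlated with a Pearson r of 0.16, -0.30 and -0.32 for 1, 2 and 4 months, since the dye effect of a probe turns sign between them. The SD of the difference between the arrays, divided by 2, was 0.14, 0.25 and 0.31 in the same order, against an SD of 0.17, 0.19 and 0.22 for their average. A constant dye effect cancels in the average of the 2 arrays, and this difference was wider at 2 and 4 months than at 1 month. The 1-month arrays lie on 1 slide and the others on another, so that the slide and the step from 1 month to the later months cannot be told apart. Of the 9 hepatocyte markers with a probe, among them Alb and Ttr, all 9 were well above background in every channel.

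The stretches upstream of the erythroid genes are shown first because these genes share regulators in red cell precursors, while their readings moved apart in these livers. The sequences are those of RefSeq for the assembly GRCm38.p6 and cover the 250 bases before the annotated start, written 5′ to 3′ on the strand of the gene. Capitals mark letters of 4 motifs on either strand: AGATAA or AGATAG or TGATAA or TGATAG as the GATA motif, and the letters CACCC and CCAAT and ATATAA.
Hba-a1, chr11:32283422-32283671, plus strand: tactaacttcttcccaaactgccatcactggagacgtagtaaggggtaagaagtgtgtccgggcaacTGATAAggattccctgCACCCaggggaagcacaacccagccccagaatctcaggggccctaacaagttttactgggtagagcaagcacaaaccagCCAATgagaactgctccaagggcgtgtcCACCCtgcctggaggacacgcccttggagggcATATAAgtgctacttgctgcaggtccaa
Hbb-bt, chr7:103813924-103814173, minus strand: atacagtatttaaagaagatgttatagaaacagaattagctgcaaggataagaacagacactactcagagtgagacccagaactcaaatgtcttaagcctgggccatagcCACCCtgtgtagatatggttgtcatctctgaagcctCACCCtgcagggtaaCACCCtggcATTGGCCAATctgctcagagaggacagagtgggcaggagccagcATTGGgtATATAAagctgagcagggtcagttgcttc
Alas2, chrX:150547167-150547416, plus strand: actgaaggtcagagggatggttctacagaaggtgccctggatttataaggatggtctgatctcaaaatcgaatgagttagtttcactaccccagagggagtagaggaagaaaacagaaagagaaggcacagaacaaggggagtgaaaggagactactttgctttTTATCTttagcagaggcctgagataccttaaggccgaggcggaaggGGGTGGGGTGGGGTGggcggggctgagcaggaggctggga
Hba-a1 held 1 GATA match, 2 CACCC, 1 CCAAT and 1 ATATAA, the last one beginning 28 bases before the start. Hbb-bt held 3 CACCC, 3 CCAAT and 1 ATATAA, and Alas2 held 1 GATA match, beginning 86 bases before the start, and 3 CACCC on the opposite strand that follow each other directly. Of all 32851 windows of this length, 26.5% held a GATA match, 52% CACCC, 33.8% CCAAT and 9.1% ATATAA. A match describes letters and not a bound site, and the missing GATA letters of Hbb-bt say only that these letters are not in this window.

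Hbb-bt is shown because the accession of the 4 Hbb-b1 probes belongs to Hbb-bt in that assembly, which carries the beta globin locus of another mouse strain than the 129/Sv used here. Adult alpha and beta globin genes have near-identical copies, and the probes are not expected to separate them. In the whole RefSeq windows, which also hold the bases just after the start, Hba-a2, the neighbouring alpha globin gene, was identical to Hba-a1 in 297 of 297 letters once moved by 3 bases, whereas Hbb-bs and Hbb-bt shared 168 of 299 letters once moved by 1. No gaps were allowed, so that an inserted or deleted base can lower the count for all letters beyond it. The windows lie outside most of the transcript and do not show what the probes match. The Hba-a1 and Hbb-b1 readings are taken here as adult alpha and adult beta globin.

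For Alas1 a short run is printed because its promoter is known to bind NRF1, a regulator of nuclear genes for mitochondrial proteins. The letters GCGCA and GCGC with any 1 letter between them were searched on both strands in the 250 bases before each of its RefSeq starts and were found at 2 places before the second start, which lies inside the longer transcript. This motif was held by 3.74% of all windows. The capitals mark the first of the 2 matches.
Alas1, chr9:106247935-106247964, minus strand: gcttcggcgcGCGCGTGCGCgcggcaggcc
The second match begins 195 bases before that start. No match was found in the window of the first start. That window ends directly before the printed match, which covers the first bases of the longer transcript.

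Among the 5 genes of heme synthesis named at the start, Alas1 had the highest average ratio at each month. On its brighter probe, A_51_P128929, the 1-month arrays read 0.89 and 1.17, the 2-month arrays 0.24 and 1.04, and the 4-month arrays -0.13 and 0.86. The averages were 1.03 ± 0.20, 0.64 ± 0.57 and 0.36 ± 0.70 (SD, n = 2 arrays), or 2.04-fold, 1.56-fold and 1.29-fold. All arrays but the 4-month array with alcohol in Cy5 were above 0, and the ratios were smaller at each later month. On the other probe, A_52_P129756, the readings were 1.05 and 1.26, then 0.50 and 1.20, and last 0.02 and 1.20, with averages of 1.16, 0.85 and 0.61. It was the only one of the 15 probes that was higher on all 6 arrays, as were 1.49% of all 37922 probes tested.

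The level of each pool gives both sides of the ratio. A level is the log2 signal of a probe above the 75th percentile of its channel, averaged over both dyes, and is compared here only within a probe. Differences of a level between months depend on this scale. On the brighter Alas1 probe the alcohol pools stood at 5.31, 5.03 and 4.34 at 1, 2 and 4 months, and the control pools at 4.28, 4.39 and 3.97. The alcohol pool was thus lower by 0.97 at 4 months than at 1 month, a difference read as -0.95 in Cy5 and -0.99 in Cy3, while the control pools spanned 0.42. On the other probe the alcohol pools stood at 3.90, 4.27 and 3.39 and the control pools at 2.74, 3.43 and 2.77, so that its alcohol difference from 1 to 4 months was -0.52 while its control pools spanned 0.69, and the course over months thus differed between the probes. On the brighter probe the 4-month alcohol pool lay below the 2-month control pool, so that the pools of the 2 diets overlapped over the whole series.

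**Figure D1:**
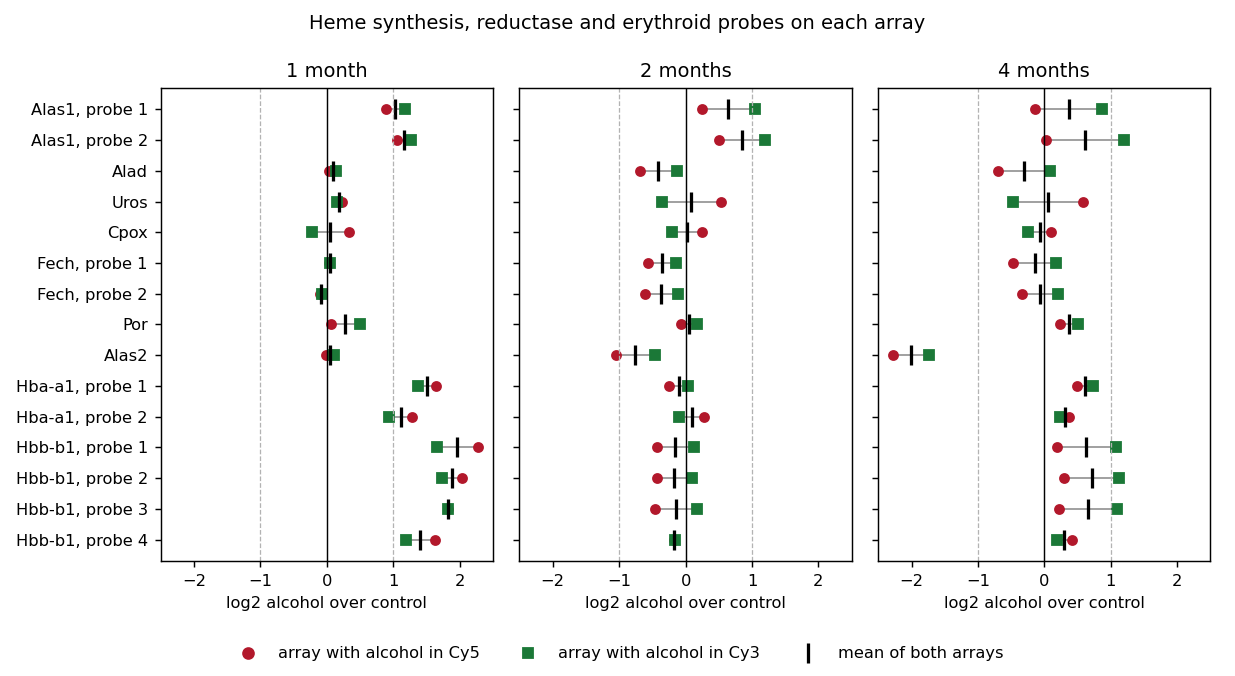
Log2 alcohol over control (x axis) of each of the 15 probes (rows) at 1, 2 and 4 months (panels); circles are the array with alcohol in Cy5, squares the array with alcohol in Cy3, the black tick their mean, and dashed lines mark 2-fold. At 1 month both Alas1 and all 6 globin probes lie past 2-fold, and at 4 months Alas2 lies at -2.003.

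At 1 month 8 of the 15 probes were at least 2-fold higher in the alcohol pool, both of Alas1 and all 6 of the globins, against 0.158% of all probes tested, and 0 were 2-fold lower, against 0.0949%. Probes of the same gene read the same transcripts and are not independent, and the genes were chosen with earlier results of these data known. No member probe was 2-fold higher at 2 or 4 months, where 0.243% and 0.464% of all probes were, and only Alas2 was 2-fold lower, at 4 months, against 0.182% and 0.338% of all probes at these months. At 1.5-fold the count of higher member probes was 8 at 1 month, against 0.609% of all probes, and 2 at 2 months, both of Alas1, against 1.39%. It was 5 at 4 months, 1 of Alas1 and 4 of the globins, against 2.52%. Alas2 was at least 1.5-fold lower at both of these months, as were 1.47% and 1.61% of all probes, and 0 members were at 1 month, against 0.649%. Past 1.5-fold on both arrays in the same direction were 8 higher probes at 1 month (0.351% of all probes) with 0 lower (0.285%), 0 higher and 0 lower at 2 months (0.472% and 0.44%), and at 4 months 0 higher and 1 lower, Alas2 (0.765% and 0.675%). The sign differed between the 2 arrays for 2, 8 and 6 of the 15 probes at 1, 2 and 4 months, against 48%, 61.8% and 65.7% of all probes. Both arrays were above 0 for 12, 2 and 8 of the 15 probes, against 22%, 17.5% and 14.8% of all probes, and both below 0 for 1, 5 and 1, against 23.8%, 17.6% and 17.5%.

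The other enzymes of heme synthesis read here stayed within 1.5-fold at every month. Alad, which joins 2 molecules of aminolevulinate to the first pyrrole, read 0.04 and 0.14 on the 1-month arrays, -0.69 and -0.13 on the 2-month arrays, and -0.70 and 0.08 on the 4-month arrays. Its averages were 0.09, -0.41 and -0.31, and only the 2-month arrays were both below 0. Uros, uroporphyrinogen III synthase, averaged 0.18 at 1 month. At 2 months its arrays read 0.53 and -0.36, and at 4 months 0.58 and -0.48, so that its averages of 0.08 and 0.05 are the middle of 2 readings of opposite sign.

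Cpox, coproporphyrinogen oxidase, averaged 0.05, 0.02 and -0.07, with opposite signs on the arrays of every month. Its levels, in contrast, differed between months in both diets: the alcohol pools stood at 1.87, 3.34 and 2.94 and the control pools at 1.82, 3.32 and 3.01. The 1-month pools of both diets were lowest, and the slide differs there too. Fech, ferrochelatase, which puts iron into the ring, was read by 2 probes. The brighter averaged 0.04, -0.35 and -0.15 and the other -0.08, -0.37 and -0.07, and both probes were below 0 on both arrays at 2 months only.

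Further enzymes of the pathway, from a list of 7 of its genes, had small ratios. On the brightest probe, Urod, uroporphyrinogen decarboxylase, averaged -0.04, -0.16 and -0.06, and Ppox, protoporphyrinogen oxidase, -0.04, 0.02 and -0.10. Of the 7 genes, only Alas1 was past 1.5-fold on its brightest probe, and that in the first 2 of the 3 months. The median over the list was 0.05, 0.02 and -0.07, beside 0.00, 0.01 and -0.01 over all probes tested.

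**Figure D2:**
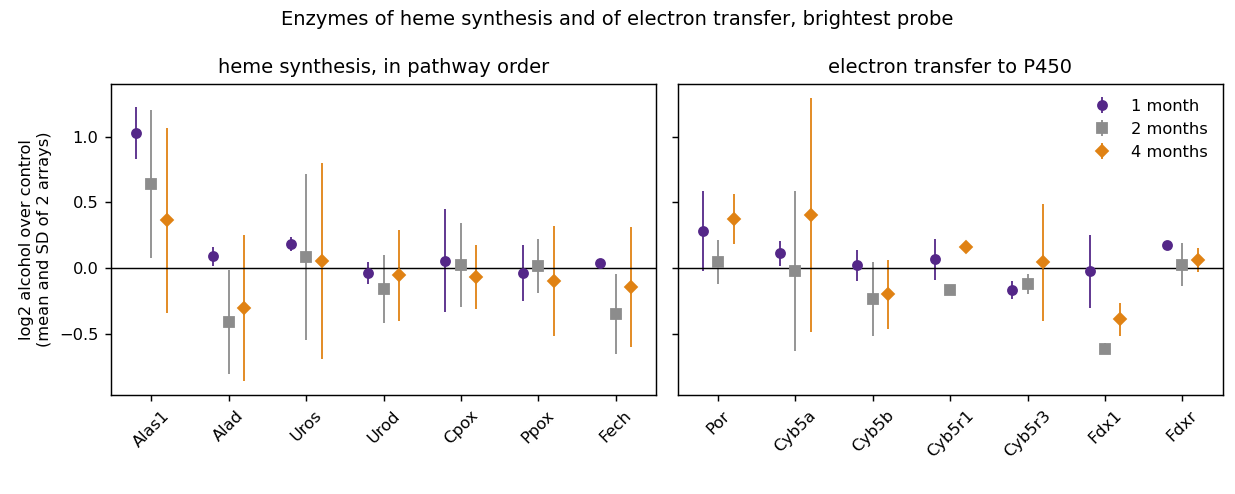
Log2 alcohol over control (y axis, mean and SD of the 2 arrays) of the brightest probe of 7 enzymes of heme synthesis in pathway order (left) and of electron transfer to P450 (right), at 1, 2 and 4 months. Alas1 stands at 1.03 at 1 month while the 6 others of the left panel lie between -0.04 and 0.18, and Fdx1 is the lowest of the right panel at 2 months with -0.62.

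Por, the flavoprotein that passes electrons from NADPH to microsomal P450, was slightly higher in the alcohol pools. Its arrays read 0.07 and 0.50 for the first month, -0.07 and 0.17 for the second, and 0.24 and 0.51 for the last. The averages were 0.28 ± 0.30, 0.05 ± 0.17 and 0.37 ± 0.19 (SD, n = 2 arrays), at most 1.29-fold. Only 1 of the 6 arrays was below 0. Between months the Por level moved more than between diets: the alcohol pools stood at 3.49, 4.72 and 4.47 and the control pools at 3.202, 4.68 and 4.10. In both diets the 1-month pool was lowest and the 2-month pool highest.

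Among the other carriers of electrons to P450, none was past 1.5-fold at 1 or 4 months. Fdx1, the ferredoxin of mitochondrial P450, averaged -0.03, -0.62 and -0.39 on its brightest probe, and its other 2 probes read -0.61 and -0.54 at 2 months. Cyb5a, cytochrome b5, averaged 0.11, -0.02 and 0.40, with an SD of 0.89 between the 4-month arrays. Cyb5b averaged 0.02, -0.24 and -0.20. The cytochrome b5 reductases Cyb5r1, with 0.06, -0.17 and 0.16, and Cyb5r3, with -0.17, -0.12 and 0.04, and the ferredoxin reductase Fdxr, with 0.17, 0.02 and 0.06, stayed close to 0. Over the 7 genes the median was 0.06, -0.12 and 0.06. Of 53 P450 genes of families 1 to 4 with a probe, which are users of heme and of Por, 16, 16 and 18 were at least 1.5-fold higher at 1, 2 and 4 months and 0, 2 and 2 at least 1.5-fold lower, and their median was 0.14, 0.08 and 0.12.

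Alas2, the erythroid form of the first enzyme, was level at 1 month and lower in the alcohol pools later. The 1-month arrays read -0.02 and 0.11, the 2-month arrays -1.05 and -0.46, and the 4-month arrays -2.28 and -1.73. The averages were 0.05 ± 0.09, -0.75 ± 0.42 and -2.003 ± 0.39 (SD, n = 2 arrays), so that at 4 months the control pool was 4.01-fold above the alcohol pool. The 2 arrays had the same sign at 2 and at 4 months, and at 4 months both were past 2-fold. The levels show the alcohol pools at 1.53, 1.16 and -0.32 and the control pools at 1.48, 1.92 and 1.68. The 4-month alcohol pool was the lowest of the 6, at -0.27 in Cy5 and -0.38 in Cy3. Its difference from the 1-month alcohol pool was -1.85, against 0.20 between the control pools of the same months. On 3 other scales of a level the first was -2.13 to -1.30 and the second -0.12 to 0.85, so that the alcohol difference kept its sign and the control difference did not.

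**Figure D3:**
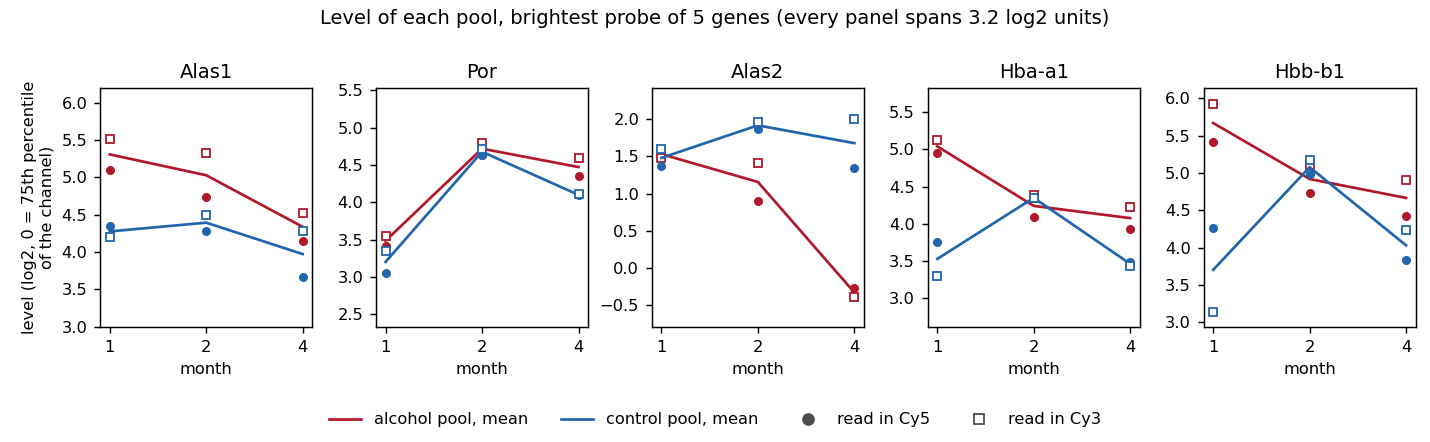
Level of each pool (y axis, log2 above the 75th percentile of its channel) at 1, 2 and 4 months for the brightest probe of 5 genes; lines join the means of the alcohol and of the control pools, filled circles were read in Cy5 and open squares in Cy3. The Alas2 level of the alcohol pool lies at -0.32 at 4 months with the control pool at 1.68, and the Hbb-b1 control pool is lowest at 1 month with 3.70.

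The globin probes were higher in the alcohol pools at 1 month, close to 0 at 2 months and moderately higher at 4 months. For beta globin, the brightest probe, A_51_P374468, read 2.27 and 1.66 on the 1-month arrays, -0.43 and 0.12 on the 2-month arrays, and 0.18 and 1.08 on the 4-month arrays. The averages were 1.97 ± 0.43, -0.15 ± 0.39 and 0.63 ± 0.64 (SD, n = 2 arrays), or 3.91-fold, 0.90-fold and 1.55-fold. The other 3 beta globin probes averaged 1.89, 1.82 and 1.41 at 1 month. They averaged -0.17, -0.14 and -0.17 at 2 months, and 0.71, 0.65 and 0.30 at 4 months.

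Alpha globin followed the same course. Its brighter probe, A_52_P278538, read 1.64 and 1.37 after 1 month, -0.25 and 0.04 after 2 months, and 0.49 and 0.74 after 4 months. Its other probe averaged 1.11, 0.09 and 0.30. All 6 globin probes were higher on both arrays after 1 and after 4 months, and 0 of 6 after 2 months. These 6 probes read 2 kinds of transcript in the same RNA and are not independent of each other.

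On the brightest beta globin probe the alcohol pools stood at 5.67, 4.92 and 4.67 and the control pools at 3.70, 5.08 and 4.03. The 1-month alcohol pool was the highest of the 6 on all 4 beta globin probes. The lowest was the 1-month control pool on this probe and the 4-month control pool on the other 3, at 3.38, 3.15 and -0.06 against 3.64, 3.61 and 0.14 at 1 month. On the brighter alpha globin probe the alcohol pools stood at 5.04, 4.24 and 4.08 and the control pools at 3.53, 4.35 and 3.46, while on the other probe they stood at 3.37, 2.50 and 3.42 and at 2.26, 2.42 and 3.11. On the brightest beta globin probe the control pool was higher by 1.38 at 2 months than at 1 month, with 0.73 in Cy5 and 2.03 in Cy3. The other 3 probes gave 0.95, 0.61 and 0.60 for this step, and other scales of the level gave 0.90 to 1.92 on the brightest. The alcohol and control pools overlapped for all 15 member probes, against 0.411% of all probes with the alcohol pools all above and 0.591% with them all below the control pools.

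Globin and Alas2, both taken as erythroid, did not move together. The median of the 6 globin probes was 1.66, -0.15 and 0.62 at 1, 2 and 4 months. It exceeded the Alas2 ratio by 1.62, 0.61 and 2.63 in the same order. The 4-month difference was 2.61 with alcohol in Cy5 and 2.64 with alcohol in Cy3.

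Few other red cell genes were past 1.5-fold, as was so for the probes of the array at large. Of the erythroid list of 29 genes, 27 had a probe and 19 were well above background in every channel, while 2, Hba-x and Rhd, were at background throughout. Without the 3 member genes, 0 of 24 genes were past 1.5-fold at 1 month and at 2 months. Of all probes tested, 0.609% and 1.39% were 1.5-fold higher at these months and 0.649% and 1.47% lower. At 4 months 0 of the 24 genes were higher and 1 lower, Epor, against 2.52% and 1.61% of all probes. The median of the 24 genes was 0.02, 0.04 and -0.05 at 1, 2 and 4 months. Slc4a1, the band 3 anion exchanger of the red cell membrane, averaged 0.15, 0.09 and -0.01, and Ahsp, which stabilizes free alpha globin, -0.13, 0.31 and -0.19. Klf1, a regulator of adult beta globin, averaged 0.07, -0.16 and -0.03 and Gata1, which binds GATA motifs, 0.12, 0.02 and -0.09. Car1, a carbonic anhydrase of red cells, averaged -0.03, -0.38 and -0.49 and was below 0 on both arrays at 2 and 4 months. Car2, another carbonic anhydrase, averaged 0.46, 0.15 and 0.45 and was above 0 on both arrays at 1 and 4 months. At 4 months its probe was not well above background in every channel. Of the 24 genes 5, 3 and 3 were higher and 4, 4 and 6 lower on both arrays at 1, 2 and 4 months. The shares of all probes were 22%, 17.5% and 14.8% higher and 23.8%, 17.6% and 17.5% lower. The summed level of the 24 genes, in multiples of the 75th percentile, ranged from 7.74 to 11.9 in the alcohol pools and from 7.66 to 11.6 in the control pools. With the member genes the sums at 1, 2 and 4 months were 98.6, 59.1 and 51.9 in the alcohol pools. In the control pools they were 38.97, 65.6 and 38.97.

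**Figure D4:**
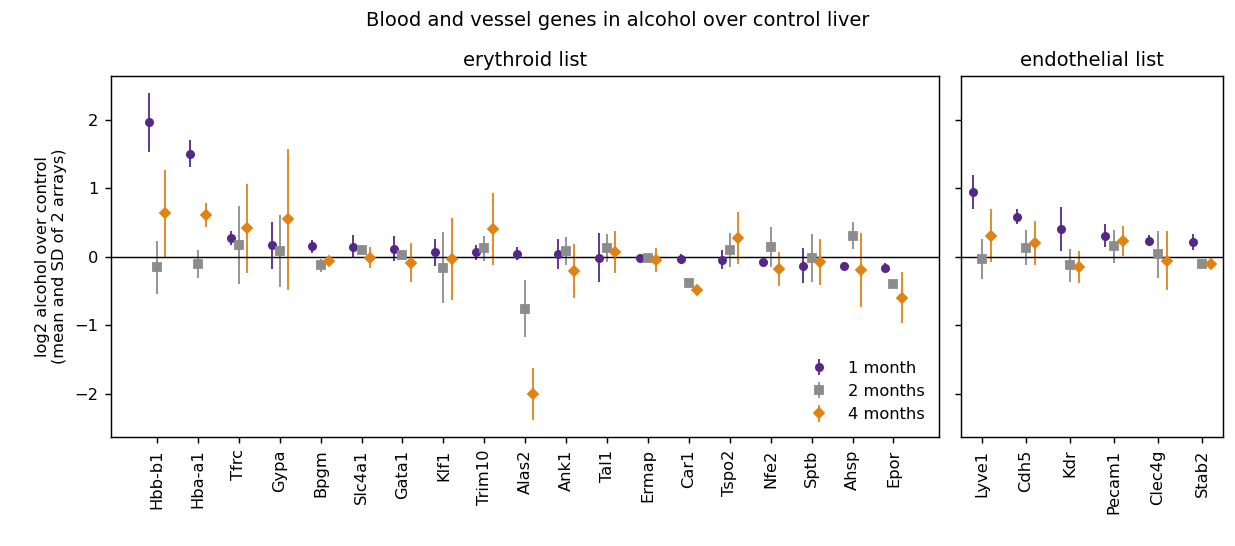
Log2 alcohol over control (y axis, mean and SD of the 2 arrays) at 1, 2 and 4 months for the brightest probe of the 19 erythroid genes (left) and 6 endothelial genes (right) that were well above background in every channel, ordered by their 1-month ratio. Hbb-b1 and Hba-a1 stand apart at 1 month and Alas2 at 4 months, and the 6 endothelial genes lie between 0.21 and 0.95 at 1 month.

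Markers of other cells differed between the pools in the same months. At 1 month all 6 endothelial markers, each well above background in every channel, were higher on both arrays, with a median of 0.36 and 2 past 1.5-fold. Their summed level was 6.01 in the alcohol pool and 4.76 in the control pool of that month, within ranges over the months of 5.37 to 6.01 and 4.76 to 5.71. Of the 8 Kupffer and macrophage markers, 5 were higher on both arrays at 1 month, 1 of them past 1.5-fold, and the median was 0.25; their summed level ranged from 29.2 to 44.1 in the alcohol pools and from 26.6 to 43.4 in the control pools. No marker of either list was at background throughout. The platelet, neutrophil and lymphocyte lists had 1-month medians of 0.03, -0.06 and 0.07 with 0 genes past 1.5-fold.

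At 4 months all 12 pancreas acinar markers with a probe were higher on both arrays, 7 of them past 1.5-fold, with a median of 0.70. Their summed level ranged from 16.6 to 26.6 in the alcohol pools and from 17.5 to 19.9 in the control pools, and none was at background in all channels. The part of the endothelial, macrophage and acinar differences in the globin and Alas2 ratios was not tested.

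Genes around heme were read from further lists. Of 14 genes of heme transport and breakdown with a probe, 1 was past 1.5-fold, at 4 months. It was Hmox1, the inducible heme oxygenase, with averages of 0.03, 0.08 and 0.63 ± 0.14 (SD, n = 2 arrays). Blvrb, a biliverdin reductase, averaged -0.06, 0.31 and 0.40. Abcb10, a transporter of the inner mitochondrial membrane, averaged -0.32, -0.16 and -0.11 on its brighter probe and 0.15, -0.08 and 0.03 on the other. Among 11 known regulators of Alas1, only Nr1d1, a heme-sensing repressor of the circadian clock, was past 1.5-fold. Its 3 probes averaged -0.09, -0.05 and -0.02 after 1 month, then -0.44, -0.91 and -0.34, and last -0.62, -1.07 and -0.64. Epor, the erythropoietin receptor, averaged -0.16, -0.40 and -0.60. Of a list of 10 genes drawn up for heme proteins outside the P450 family, such as Cat and Tdo2, but also holding Sqor, a flavoprotein, and Ncf1, an oxidase subunit without heme, 0 were past 1.5-fold at any month.

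The 3 months were then taken as replicates of alcohol against control with limma, which called 0 of 37922 probes after adjustment, the smallest adjusted p being 0.1055, and 3028 probes, or 7.98%, at an unadjusted p below 0.05. Of the 15 member probes 3 had such an unadjusted p. The average over months was 0.68 (SE 0.137) on the brighter Alas1 probe, with a limma adjusted p of 0.620, and 0.87 (SE 0.117) on the other, with a limma adjusted p of 0.601. Por averaged 0.23 (SE 0.085), with a limma adjusted p of 0.620. Alas2 averaged -0.90 (SE 0.389) with a limma adjusted p of 0.624, and the brightest beta globin probe 0.82 (SE 0.403) with a limma adjusted p of 0.646. Without the 4-month pair the Alas2 average was -0.35, and without the 2-month pair the beta globin average was 1.30. Without the 1-month pair these were -1.38 and 0.24.

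A slope of the ratio over the log2 of the month was fitted likewise. By limma 0 of 37922 slopes were called, the smallest adjusted p being 0.616, and 2813 slopes, or 7.42%, had an unadjusted p below 0.05. The slope of Alas2 was -1.03 (SE 0.101) per doubling of the treatment time, with a limma adjusted p of 0.616. Those of the Alas1 probes were -0.33 (SE 0.0808) and -0.27 (SE 0.0798), with limma adjusted p of 0.627 and 0.644. The slopes of the 6 globin probes lay between -0.67 and -0.40, and those of the other members between -0.20 and 0.05. After normexp background correction and loess, limma called the slope of 50 probes, with Alas2 among them at -1.003 (SE 0.0887) and an adjusted p of 0.0233.

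Genes whose 6 pool levels were most like those of a member were looked up among 22434 bright probes with a level range of at least 0.5. The measure is a Pearson r over the 6 pools, given as a description, and the pools share slides and dyes by month. For Alas1 they were Fmo1 (r = 0.96), Fpgs (0.95), Creg1 (0.94), Tdo2 (0.94) and BC004015 (0.93). For Alas2 they were Lhx2 (0.99), Nr3c2 (0.99), Adh4 (0.98), Mtcp1 (0.98) and Snap29 (0.97). The probe named Mtcp1 on the array is matched to the current symbol Cmc4. The ratio of Adh4, an alcohol dehydrogenase, was -0.17, -0.55 and -1.24 at 1, 2 and 4 months, the same order as that of Alas2. For the mean of the globin probes they were Serpinb1a (0.96), Fabp4 (0.93), Acaa1a (0.90), Bsg (0.90) and Bche (0.89). Fabp4, a fatty acid binding protein of fat and endothelial cells, had ratios of 1.17, 0.27 and 0.30, and Serpinb1a 0.98, -0.12 and 0.06.

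The 5 genes nearest to Por, 1500034J01Rik, D11Ertd333e, Ptp4a1, Arl15 and Cldnd1, had r of 0.996 to 0.998 and ratios between -0.02 and 0.37, so that their likeness lies in the step between months that both diets share. D11Ertd333e is the older name of Slc25a39, a mitochondrial carrier. Among the members, the brighter Alas1 probe had r of 0.80 to 0.88 with 5 of the 6 globin probes and 0.14 with the dimmer Hba-a1 probe, Por and Cpox 0.97, and Alas2 and the mean of the globin probes 0.02.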

How the data were processed

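Liver RNA pools of alcohol-fed and control mice were compared on 6 two-color arrays, 2 per month with exchanged dyes. Scanner software of the authors (Feature Extraction 9.1.1.1) had corrected background and normalized dyes, and the deposited files hold, per spot, the resulting intensity in either channel, besides a log10 ratio (Cy5 to Cy3) and its modeled error. A table of log10 ratios of the same arrays, also deposited, already ran as alcohol over control and lay within 0.016 log2 of the scanner ratios. The p-value deposited beside each ratio reflects technical error only and was left unused.

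Each log10 ratio was turned to alcohol over control by the dyes given in the labels, put on the log2 scale and averaged over spots and over the dye-swap pair, with the 1639 control spots left out. The number of arrays limits the precision. Tests covered the 37922 probes that stood well above background in some channel of some array. They were run on the 3 monthly averages (limma 3.58.1, R 4.3.3) with Benjamini-Hochberg adjustment at 0.05. Both tests were tried on simulated data with changes of at least 2-fold, for the slope per doubling of the treatment time. There the test of the effect recovered changes of every size tried. That of the slope, with 1 residual degree of freedom, recovered only the largest. The simulated effect was the same at every month. Smaller effects, or effects that differ between months, were not tried, so that the trial says nothing on them. A pool level is the log2 processed intensity minus the 75th percentile of its channel. Python 3.11.15 with pandas 2.3.3, numpy 2.4.6 and matplotlib 3.10.9 served for the rest. A change was counted at 2-fold, and at 1.5-fold as an alternative.

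The 9 genes and the 17 gene lists were chosen with earlier results of these data known. The lists come from general knowledge, and 2 of their genes are not reported here and were left out of the counts and medians. Named are all members, the listed genes of heme synthesis and of P450 electron transfer, genes of the transport and breakdown, regulator and erythroid lists whose average was past 1.5-fold with the same sign on both arrays, and the 5 genes of most similar pool levels per pattern. Values given for other genes of the lists, such as Blvrb, Abcb10, Car1, Car2, Slc4a1, Ahsp, Klf1 and Gata1, were chosen after they were seen. Of 25510 probes with a RefSeq accession, 22951 were matched to a symbol of GRCm38.p6, and the others kept the name on the array. Members and the genes of most similar pool levels are printed under their array names. Sequences are from RefSeq tables of that assembly, which held all 4 genes shown. Alternatives were normexp (offset 50) with loess, the deposited table, error-weighted averages, single arrays, median centring, filters on dim probes, leaving out each month, the slides weighted equally, month in place of log2 month, a t-test without moderation, and other scales of a pool level.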

Additional observations from a re-analysis of the deposited data

Results flagged for a closer look

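The following 3 probes had both arrays of 1 month above 0 and both arrays of another month below 0, and these differences between months were not tested. Alad was above control on both 1-month arrays (average 0.09) and below it on both 2-month arrays (-0.41), a difference of -0.50 on the log2 scale. The brighter Fech probe did the same, with 0.04 and -0.35 and a difference of -0.39. The dimmest Hbb-b1 probe read 1.41 at 1 month, -0.17 at 2 months and 0.30 at 4 months, differences of -1.58 and then 0.47. The months differ in mice, and the first of these steps also in the slide.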

How the results depend on the processing

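The count of member probes past 2-fold was 8 at 1 month under 7 of the 9 alternatives and 7 on either array alone. At 2 months it was 0 and at 4 months 1, but 1 and 2 on single arrays at 2 months, 1 and 5 at 4 months, and 3 and 6 at 1.5-fold. Of 174 monthly ratios of single genes under an alternative, 13 had the other sign, 12 of them on a single array, and all 13 belong to averages within 1.5-fold. The number of probes with a called alcohol effect was 0, but 9 with normexp and loess and 6 among the 27900 probes bright in every channel, 0 of them members; it was 0 without each month in turn. The 3 of 15 member probes at an unadjusted p below 0.05 (3028 of all 37922) became 8 with normexp and loess (3420 of all), 5 among bright probes (2845 of 27900), 8 with the slides weighted equally (2706), 2 without a filter (3170 of 41174), 1 without moderation (2247), and 4, 9 and 2 without 1, 2 and 4 months (4334, 1862 and 1563). The slope was called for 0 probes, for 50 with normexp and loess and for 1 without moderation, and its 3 unadjusted members (2813 of all) became 5 and 1 (3460 and 2119). The Cpox effect, 0.0019, ranged from -0.024 to 0.039 with 1 month left out and was -0.0087 without the 2-month pair.

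A level set across months depends on its scale. With normexp, loess and Aquantile, with the channel median and relative to the hepatocyte list, the 4-month minus 1-month difference of Alas2 was -2.13, -1.30 and -1.43 in the alcohol pool and -0.12, 0.75 and 0.85 in the control pool, and that of Hbb-b1 in the alcohol pool, -1.004 here, was -1.11, -0.45 and -0.57. The 2-month minus 1-month difference of Hbb-b1 in the control pool was 0.90, 1.92 and 0.93. The hepatocyte scale and the count at 1.5-fold on both arrays, which gave 8, 0 and 1, were added after seeing the data. The causes were not tested. The replicate numbers mark only the dye orientation of a pool pair and pair no samples. Alcohol and control were paired by month, since each monthly ratio sets the pools of the 2 diets against each other. The limma tests were run on these ratios.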
